A study of Mus musculus with 62 samples.

Results

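REV-ERBα (Nr1d1), REV-ERBβ (Nr1d2), RORα (Rora) and RORβ (Rorb) are 4 nuclear receptors that were followed in 3 mouse brain regions, the suprachiasmatic nucleus (SCN), nucleus accumbens (NAc) and prefrontal cortex (PFC). The members were the rows of the deposited gene counts whose Ensembl identifiers map to these symbols, which gave 4 of 11569 rows for the NAc and PFC and 4 of 12047 rows for the SCN. REV-ERBs are haem-binding repressors that recruit a corepressor complex with the deacetylase HDAC3, whereas RORs are activators that bind the same DNA elements. Both kinds of receptor act on Arntl, which encodes BMAL1, and together form the second loop of the circadian clock. CLOCK and BMAL1 in turn drive Nr1d1 and Nr1d2 through E-boxes, the elements that also drive the Per genes and Dbp.

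C57BL/6J mice went through circadian rhythm disruption (CRD) or a control paradigm, and tissue was punched from frozen brains some weeks later. The labels' protocol names mice exposed to CRD in adolescence or as adults and matching controls, all euthanized at zeitgeber time (ZT) 6, that is, 6 h after lights on, whereas the methods of the study describe the adolescent exposure alone for this tissue. The 62 libraries, each from the tissue of a single animal, came from 26 mice and comprised 19 SCN, 26 NAc and 17 PFC libraries. The labels give region and mouse number but neither CRD or control nor sex, so libraries were grouped by region only, a region can hold any of these conditions, and neither CRD nor sex entered a test.

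Total counts were 16496666 to 35389742 in the SCN, 28879724 to 60009482 in the NAc and 31216225 to 50333579 in the PFC, and the lowest count of any member in any library was 350, for Nr1d1 in the NAc. Ribosomal RNA of mitochondria (mt-Rnr1 and mt-Rnr2) took 20.5 to 51.6% of the counts in the SCN, 39.0 to 69.3% in the NAc and 42.0 to 59.1% in the PFC. All 8 markers of striatal projection neurons were called higher in the NAc, compared with the PFC, and all 7 cortical glutamatergic markers were lower. The 3 of 9 SCN neuron markers that could be compared across tables, Vip, Syt10 and Gpr176, were higher in the SCN than in either other region. SCN J1199 and SCN J1140 stood apart, with 118 and 60.3 CPM of the striatal gene Ppp1r1b against 8.78 CPM or less elsewhere in the SCN. In SCN J1165 there were 1403 Xist counts, against 23 in the NAc library and 18 in the PFC library of the same mouse number, which goes against the label of the library. SCN J1157 and SCN J1159 had the lowest shares of mt-Rnr1 and mt-Rnr2 in the SCN, 20.5 and 24.8% against a median of 38.2%, and 23495106 and 21560540 counts of nuclear coding genes against a median of 8347729. SCN results were repeated without these libraries. The punches are bulk tissue, in which fewer cells of a type and less RNA per cell cannot be told apart.

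All 4 members are annotated as protein-coding genes on GRCm38. Nr1d1 (ENSMUSG00000020889) lies at chr11:98767932-98775333 on the minus strand, Nr1d2 (ENSMUSG00000021775) at chr14:18204054-18239127 on the minus strand, Rora (ENSMUSG00000032238) at chr9:68653786-69388246 on the plus strand and Rorb (ENSMUSG00000036192) at chr19:18930605-19111196 on the minus strand. Their merged exons cover 3077, 5409, 13071 and 11076 bases in the same order. Nr1d1 shares 263 exon bases, or 8.55% of its exons, with Thra, the thyroid hormone receptor α gene on the opposite strand, and Rora shares 82 bases (0.627%) with the antisense gene Gm15511. The strand setting of the counting is not given in the sources used here, so counts from the shared bases are uncertain.

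The promoters of members that held a clock-related motif are shown because the REV-ERBs are both targets and effectors of the loop. Whether a motif bears on the level of its gene, or on how that level varied with other genes, was not tested. RefSeq promoter sequences (GRCm38.p6) were found for all 4 members, with a second start site for Rorb, and the 250 bases before each start were searched on both strands for 4 motifs that share no overlap in these windows. The E-box, CACGTG, was held by 6.02% of 32851 promoter windows of the same length. Its variant CACGTT, which reads AACGTG on the opposite strand, was held by 3.85%. The D-box, TTATGTAA, was held by 0.819%. The REV-ERB/ROR half-site, AGGTCA, was held by 14.02%. The sequences run from position -250 to -22 relative to the start, 5′ to 3′ on the strand of the gene, with the motif in capitals. They are Nr1d1 at chr11:98775399-98775627, Nr1d2 at chr14:18239128-18239356 and the second Rorb window at chr19:19001139-19001367, all on the minus strand.
Nr1d1: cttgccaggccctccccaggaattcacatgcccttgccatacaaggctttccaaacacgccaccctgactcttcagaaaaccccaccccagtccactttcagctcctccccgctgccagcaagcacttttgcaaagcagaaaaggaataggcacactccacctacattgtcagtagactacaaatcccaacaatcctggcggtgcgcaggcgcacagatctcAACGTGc
Nr1d2: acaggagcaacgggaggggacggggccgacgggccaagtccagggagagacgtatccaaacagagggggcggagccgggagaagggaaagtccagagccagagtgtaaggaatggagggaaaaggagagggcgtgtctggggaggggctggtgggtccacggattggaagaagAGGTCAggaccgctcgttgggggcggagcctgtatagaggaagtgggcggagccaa
Rorb, second window: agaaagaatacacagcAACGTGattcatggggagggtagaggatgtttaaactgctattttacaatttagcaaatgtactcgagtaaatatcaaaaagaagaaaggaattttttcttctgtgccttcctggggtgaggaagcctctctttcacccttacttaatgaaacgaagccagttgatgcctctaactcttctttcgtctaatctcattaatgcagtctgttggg
The Nr1d1 window held the E-box variant at position -28, the Nr1d2 window a half-site at -77, and the second Rorb window the E-box variant at -234. None of these motifs was found in the Rora window or the first Rorb window. For Nr1d1 the bases just after the start were not found in an annotated transcript, unlike those of the other windows. A match is a description of the letters, and no match says only that they are absent from these windows.

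Levels are given in CPM, the counts of a gene scaled to the effective library size, which was set over the 11133 rows in both tables. The SCN was deposited in a separately filtered table, and library preparation and sequencing run per region are not labelled, so they cannot be told apart from region wherever the SCN is set against the others. Nr1d1 ranged from 26.4 to 77.3 CPM in the SCN with a median of 38.4 CPM, from 15.5 to 41.6 CPM in the NAc with a median of 32.4 CPM, and from 24.2 to 46.1 CPM in the PFC with a median of 39.2 CPM. Nr1d2, its paralog, ranged from 69.0 to 124 CPM in the SCN with a median of 90.1 CPM, from 58.1 to 102 CPM in the NAc with a median of 73.7 CPM, and from 54.1 to 75.4 CPM in the PFC with a median of 65.6 CPM. The groups overlapped for both REV-ERBs, with the SCN reaching the highest values, and for Nr1d2 13 of 19 SCN libraries lay above every PFC library. Rora ranged from 40.8 to 209 CPM in the SCN (median 118), from 26.7 to 52.7 CPM in the NAc (median 39.6) and from 40.6 to 71.9 CPM in the PFC (median 50.5). Rorb ranged from 29.6 to 167 CPM in the SCN (median 75.8), from 26.9 to 49.4 CPM in the NAc (median 36.1) and from 30.2 to 50.04 CPM in the PFC (median 42.9). For Rora, 18 of 19 SCN libraries lay above every NAc library and 16 of 19 above every PFC library. For Rorb, 17 of 19 SCN libraries lay above all of either other region.

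**Figure D1:**
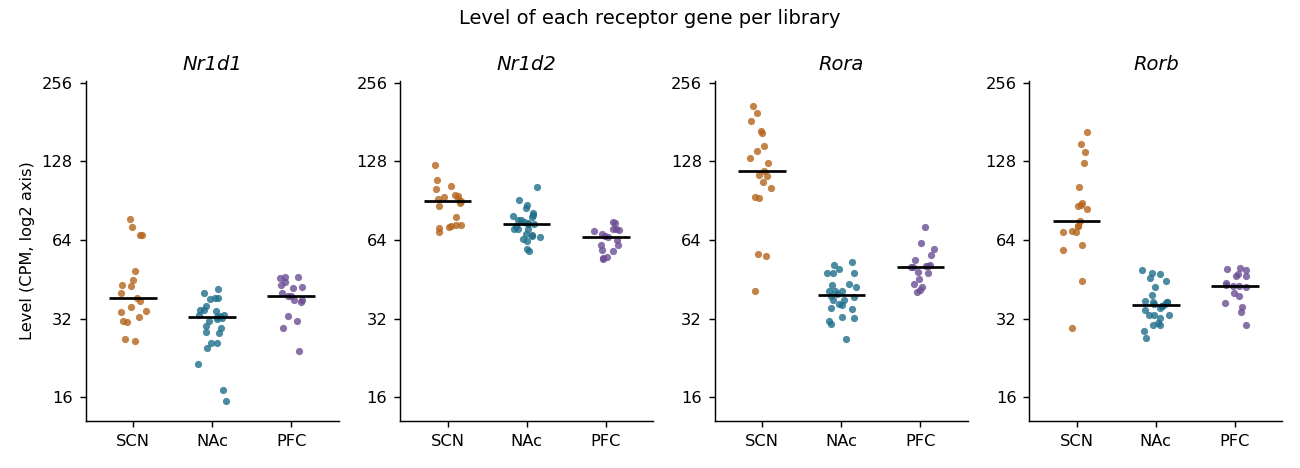
Level of the 4 receptor genes in every library, in CPM on a log2 axis, by region (SCN n = 19, NAc n = 26, PFC n = 17). Each point is a library and each line the median of its region. The Rora and Rorb points of the SCN sit mostly above the other regions, the Nr1d1 points of the 3 regions overlap, and for Nr1d2 13 of 19 SCN points lie above every PFC point.

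Levels were compared between the genes per kilobase of merged exon over all annotated transcripts (2 for Nr1d1, 4 for Nr1d2, 6 for Rora, 5 for Rorb). Which transcripts were expressed was not resolved, and the order of the genes and the ROR share depend on this length. In CPM the SCN median of Rora, 118, lay above those of Nr1d2, 90.1, and Nr1d1, 38.4. That of Rorb, 75.8, lay above that of Nr1d1. In the SCN the median was 16.7 CPM per kilobase for Nr1d2, 12.5 for Nr1d1, 9.03 for Rora and 6.85 for Rorb. In the NAc the medians were 13.6 for Nr1d2, 10.52 for Nr1d1, 3.03 for Rora and 3.26 for Rorb, and in the PFC they were 12.1, 12.7, 3.87 and 3.87 CPM per kilobase in the same gene order. Both REV-ERBs exceeded both RORs per kilobase in 26 of 26 NAc, 17 of 17 PFC and 17 of 19 SCN libraries. Within the REV-ERBs, Nr1d2 exceeded Nr1d1 in 24 of 26 NAc and 14 of 19 SCN libraries but in only 5 of 17 PFC libraries. Within the RORs the order was mixed outside the SCN, with Rora above Rorb in 9 of 26 NAc, 10 of 17 PFC and 17 of 19 SCN libraries. The RORs together made up 20.9 to 45.0% of the summed level per kilobase of the 4 genes in SCN libraries, with a median of 34.0%. The share was 16.8 to 25.03% in NAc libraries (median 21.0%) and 20.5 to 27.2% in PFC libraries (median 24.2%). Of the 19 SCN libraries, 18 lay above the highest NAc value of this share and 17 above the highest PFC value.

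Between the NAc and PFC, Nr1d1 and Rora were lower in the NAc by small amounts. Nr1d1 was lower by 0.31 on the log2 scale (SE 0.088), or 1.24-fold (edgeR quasi-likelihood test, Benjamini-Hochberg adjusted p = 0.0020), and was lower in the NAc in 14 of the 17 mice with both regions. Rora was lower by 0.35 on the log2 scale (SE 0.072), or 1.27-fold (edgeR adjusted p = 3.9e-05), again in 14 of 17 mice. Rorb had a log2 fold change of -0.20 (SE 0.067, edgeR adjusted p = 0.0097) and Nr1d2 one of 0.20 (SE 0.056, edgeR adjusted p = 0.0015), and both were under the 1.2-fold limit for a call. Nr1d2 was higher in the NAc in 16 of 17 mice. Calls required an adjusted p under 0.05 and a 1.2-fold change, and 45.4% of all genes met this rule, 23.7% as higher in the NAc and 21.7% as lower, so 2 of 4 members called is near the background. Nr1d2 stood opposite to the other 3 members in direction.

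**Figure D2:**
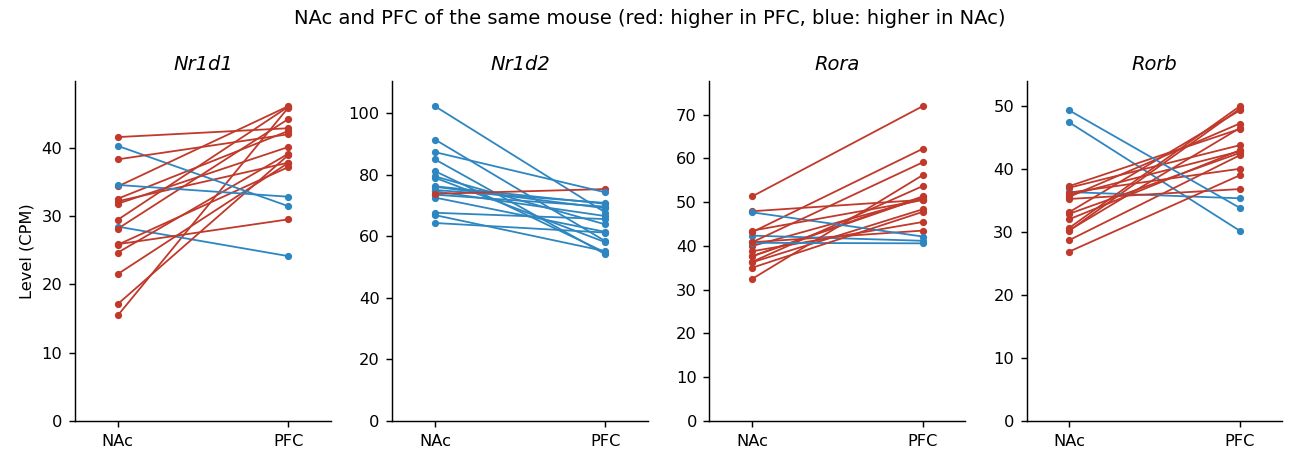
Level in CPM of the 4 receptor genes in the NAc and PFC of the 17 mice with both regions; each line joins the libraries of a mouse, red where the PFC was higher and blue where the NAc was higher. Nr1d1, Rora and Rorb were higher in the PFC in 14 of 17 mice each and Nr1d2 was higher in the NAc in 16 of 17.

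With mouse number as a block, over the 17 mice with both regions, all 4 members were called, beside 49.1% of all genes in that fit, with log2 fold changes of -0.41 for Nr1d1, 0.28 for Nr1d2, -0.31 for Rora and -0.27 for Rorb. The same mice without the block also gave 4 calls, beside 49.6% of all genes. The mouse numbers form a lower range that ends at J1021 and an upper range that starts at J1140. In the lower range all 4 members were called, beside 46.9% of all genes, whereas in the upper range only Rora was called, beside 43.1%, with -0.40 on the log2 scale, and the values were -0.21 for Nr1d1, 0.08 for Nr1d2 and -0.15 for Rorb. The share of mt-Rnr1 and mt-Rnr2 differed between the ranges as well. In the lower range its median was 54.4% in the NAc and 45.0% in the PFC, and in the 7 mice with both regions it was higher in the NAc in each, whereas in the upper range the medians were 45.9 and 50.8% and it was higher in the NAc in 4 of 10 mice. Its part in these calls was not tested. Oligodendrocyte markers (9 of 9 called higher in the NAc) moved with the comparison as well, and the part of cell composition in the differences was not tested. Thra, which overlaps Nr1d1, had a log2 fold change of 0.06 (edgeR adjusted p = 0.61).

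Against the NAc, the SCN held about 3 times the Rora level and over 2 times the Rorb level. Rora was higher by 1.64 on the log2 scale (SE 0.112), or 3.11-fold (edgeR adjusted p = 6.7e-21), in 18 of 19 mice with both regions. Rorb was higher by 1.24 (SE 0.109), or 2.36-fold (edgeR adjusted p = 3.8e-16), in 17 of 19 mice. Nr1d1 was higher by 0.49 (SE 0.107), or 1.40-fold (edgeR adjusted p = 3.9e-05), in 15 of 19 mice. Nr1d2 differed by 0.25 (SE 0.060, edgeR adjusted p = 1.4e-04), under the 1.2-fold limit, and lay on either side of that limit in other settings. It was called in the 19 mice with both regions with the mouse block (0.27) or without it (0.28), in mice of the upper range (0.34) and without SCN J1165 (0.27), SCN J1199 and SCN J1140 (0.26) or SCN J1157 and SCN J1159 (0.29). It was not called in the lower range, at 0.15 (edgeR adjusted p = 0.14), or with the other filters, scalings and DESeq2. The background was 64.1% of genes called, 33.1% as higher in the SCN and 31.0% as lower, and 3 of 4 members were called. Without SCN J1199 and SCN J1140 the log2 fold change was 1.69 for Rora and 1.28 for Rorb, and without SCN J1165 it was 1.65 and 1.26. Without SCN J1157 and SCN J1159 it was 1.57 for Rora, 1.11 for Rorb and 0.38 for Nr1d1. Other cell markers moved with this comparison. Of 8 astrocyte markers, 7 were higher and 1 lower in the SCN (median 0.70 on the log2 scale), of 9 oligodendrocyte markers 2 were higher and 1 lower (median 0.06), and all 6 striatal markers tested were lower. SCN libraries also held less mt-Rnr1 and mt-Rnr2, with a median share of 38.2% against 49.4% for the NAc and 46.6% for the PFC. The part of these measures in the receptor differences was not tested.

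Against the PFC, Rora, Rorb and Nr1d2 were higher in the SCN. Rora was higher by 1.28 on the log2 scale (SE 0.128), or 2.43-fold (edgeR adjusted p = 4.4e-14), and Rorb by 1.04 (SE 0.124), or 2.06-fold (edgeR adjusted p = 2.5e-11), each in 11 of 12 mice with both regions. Nr1d2 was higher by 0.45 (SE 0.067), or 1.37-fold (edgeR adjusted p = 1.1e-08), in 12 of 12 mice. Nr1d1 was not called, with a difference of 0.17 (SE 0.119, edgeR adjusted p = 0.18) and a higher SCN value in 8 of 12 mice. Here 3 of 4 members were called, against a background of 64.7% of genes, 33.7% as higher in the SCN and 31.0% as lower. Without SCN J1157 and SCN J1159 the log2 fold changes were 1.196 for Rora, 0.89 for Rorb, 0.48 for Nr1d2 and 0.04 for Nr1d1. All 9 oligodendrocyte markers (median 2.16) and 7 of 8 astrocyte markers (median 0.54, 1 lower) were higher in the SCN than in the PFC, and their part was not tested. The order of the region medians differed by member, with the SCN and PFC not distinguished for Nr1d1, and the NAc lowest for Nr1d1, Rora and Rorb but above the PFC for Nr1d2. Thra had log2 fold changes of -0.28 (SCN against NAc, edgeR adjusted p = 0.0053) and -0.22 (SCN against PFC, edgeR adjusted p = 0.047), opposite in sign to those of Nr1d1.

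Genes with REV-ERB/ROR elements were the first list placed beside the receptors. Of its 6 genes, 2 were higher and 3 lower in the NAc than in the PFC, with a list median of -0.24 on the log2 scale against 0.02 over all genes. Cry1, a repressor of CLOCK and BMAL1, was higher in the NAc by 0.78 (SE 0.088), and Npas2, a paralog of Clock, by 0.54 (SE 0.049). Nfil3, a repressor at D-boxes, had -0.69 (SE 0.122), Arntl -0.53 (SE 0.046) and Fabp7, a fatty acid binding protein of astrocytes, -0.46 (SE 0.091). Clock was not called. In the SCN, Npas2 was lower than in the NAc by 3.10 on the log2 scale and lower than in the PFC by 2.56, whereas Fabp7 was higher by 1.61 and 1.14. The list counted 3 higher, 1 lower and 2 not called against the NAc and 2 higher, 3 lower and 1 not called against the PFC. Of all genes, 64.1% were called for the SCN against the NAc, 64.7% against the PFC and 45.4% between the NAc and PFC.

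E-box clock genes, which encode repressors and output factors of the first loop, held 4 genes higher, 1 lower and 5 not called of 10 between the NAc and PFC (median 0.19 against 0.02 over all genes). Bhlhe40, a repressor at E-boxes, had the widest difference at -1.53 (SE 0.070), while its paralog Bhlhe41 was higher in the NAc by 0.99 (SE 0.066). Dbp, an activator at D-boxes, was higher by 0.96 (SE 0.077), Tef, of the same family, by 0.50 (SE 0.056) and Per1 by 0.29 (SE 0.079). Per2, a partner of the cryptochromes, was not called between the NAc and PFC but was higher in the SCN by 1.22 on the log2 scale against the NAc and by 1.37 against the PFC. Against each of these regions, 4 of the 10 genes were higher in the SCN, 3 were lower and 3 were not called. Of all genes, 45.4% were called between the NAc and PFC. For the SCN, 64.1% were called against the NAc and 64.7% against the PFC, so the counts of this list are near the background.

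Cofactors of the receptors were mostly lower in the SCN. Of 13 corepressors and coactivators, 9 were lower and 2 higher against the NAc (list median -0.51, all genes 0.02), and 8 were lower and 1 higher against the PFC (list median -0.47, all genes 0.03). Of all genes, 31.0% were lower in the SCN in either comparison, and 33.1% (NAc) and 33.7% (PFC) were higher. Between the NAc and PFC 45.4% of all genes were called. Nrip1, a nuclear receptor corepressor, had -1.15 against the NAc and -1.37 against the PFC, and Ncor1, the scaffold of the HDAC3 complex, had -0.74 and -0.67. SCN J1157, with the lowest share of mt-Rnr1 and mt-Rnr2 in the SCN, held the highest SCN level of Ncor1. It was 131 CPM, against medians of 59.0 CPM in the SCN and 109 CPM in the NAc. Nrip1 was instead highest in SCN J1199. The part of RNA composition and depth in the cofactor differences was not tested. Between the NAc and PFC only the paralogs Tbl1x (0.36) and Tbl1xr1 (-0.32), subunits of the same complex, were called. Among 5 genes for the kinase and ubiquitin ligases of REV-ERB turnover, Fbxw7, the substrate receptor of a ubiquitin ligase, was lower in the NAc than in the PFC by 1.36, and 4 of 5 were lower in the SCN than in either other region, with Mycbp2 at -1.09 and -1.15. Haem, the REV-ERB ligand, is made and degraded by a list of 12 genes, of which 10 were tested. Alad, Urod and Blvrb were higher in the SCN than in the NAc, by 0.57, 0.38 and 0.51, and 7 of the 10 were not called. Blvrb was low, with medians of 2.91 CPM in the SCN and 2.07 CPM in the NAc. Against the PFC, 4 of the 10 were higher, 1 was lower and 5 were not called. The counts of higher haem genes are near the background of 33.1% (NAc) and 33.7% (PFC).

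**Figure D3:**
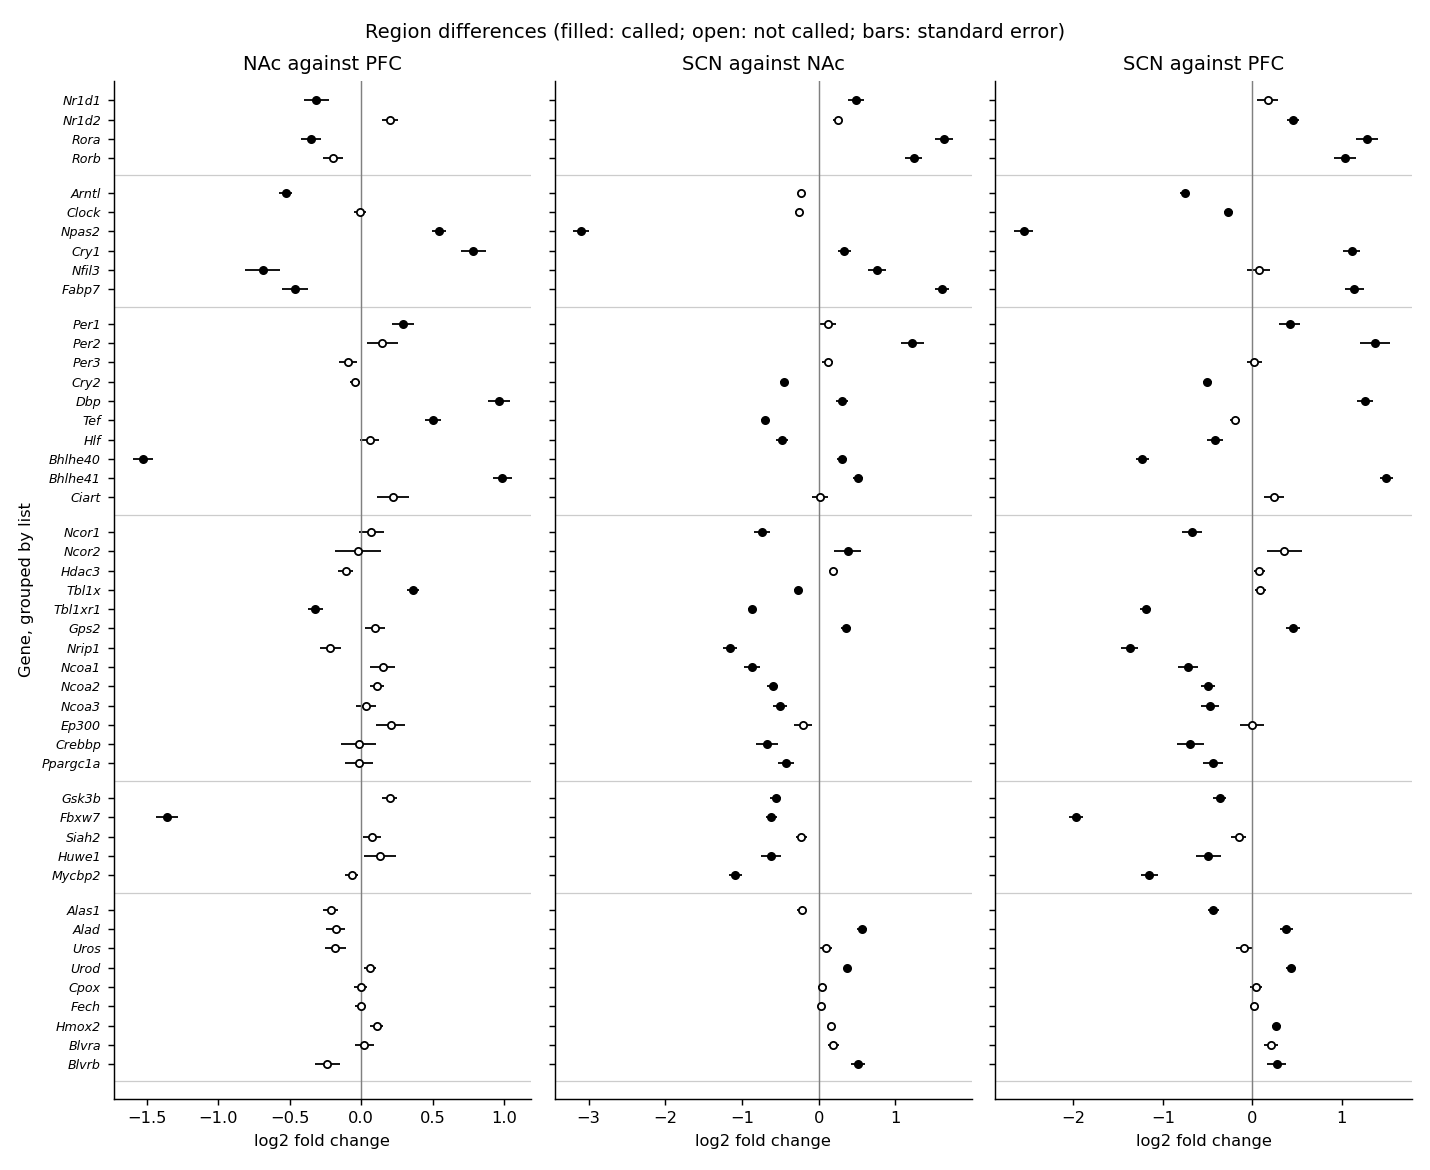
Log2 fold change (x) of the receptors and of the genes of the 5 lists that are reported (y, separated by grey lines) in each regional comparison; bars are standard errors, filled points were called (edgeR adjusted p under 0.05 and at least 1.2-fold) and open points were not. Rora and Rorb lie near 1 or above against both other regions, and most cofactors lie left of 0 in the SCN comparisons.

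Within a region, the spread of the receptors between libraries was widest in the SCN. The SD of log2 CPM there was 0.63 for Rora and 0.60 for Rorb, at the 93.7 and 92.5 percentile of all genes, 0.47 for Nr1d1 (83.7) and 0.24 for Nr1d2 (34.9). In the NAc it was 0.35 for Nr1d1 and 0.19 to 0.25 for the others, and in the PFC 0.25 for Nr1d1 and 0.15 to 0.22 for the others. Nr1d2 was the least variable member in each region.

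Nr1d1, Rora and Rorb varied together in the SCN. Rora with Rorb gave a Pearson r of 0.92 across 19 libraries (permutation p = 1e-05, adjusted p = 6e-05, Spearman rho 0.93, permutation p = 1e-05), Nr1d1 with Rorb 0.86 (permutation p = 1e-05, adjusted p = 6e-05, rho 0.82, permutation p = 5e-05) and Nr1d1 with Rora 0.79 (permutation p = 0.00012, adjusted p = 0.00054, rho 0.82, permutation p = 5e-05). A p of 1e-05 is the smallest these permutations can give. With the 2 most distant libraries left out, those farthest from the median of the x measure, the r values were 0.85, 0.79 and 0.78, and in the separate ranges of mouse numbers they were 0.80 to 0.93. Without SCN J1199 and SCN J1140 they were 0.91, 0.87 and 0.79, without SCN J1165 0.92, 0.86 and 0.80, and without SCN J1157 and SCN J1159 0.93, 0.79 and 0.78. Leaving out SCN J1157 and SCN J1159 also let Nr1d2 with Rora (0.65) and with Rorb (0.59) pass, which gave 0.42 and 0.23 over all 19. After removing the linear trend on a score of SCN neuron markers, r was 0.72 for Rora with Rorb (adjusted p = 0.0040, permutation test) and 0.66 for Nr1d1 with Rorb (adjusted p = 0.0072, permutation test), while Nr1d1 with Rora fell to 0.41 and no longer passed (adjusted p = 0.094, permutation test). Nr1d1 with Nr1d2 gave 0.07 (permutation p = 0.77, adjusted p = 0.82, rho 0.23, permutation p = 0.35). With the trend on the share of mt-Rnr1 and mt-Rnr2 removed, all 6 SCN pairs of members passed, so the 3 pairs with Nr1d2 passed as well. The 18 pairs of members over the 3 regions were adjusted together, and 8 passed.

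Nr1d1 fell into separate sets in the SCN, with SCN J965, J1160, J1157 and J1159 at 66.6 to 77.3 CPM and the other 15 libraries at 26.4 to 48.8 CPM. These 4 libraries had shares of mt-Rnr1 and mt-Rnr2 of 33.5, 35.7, 20.5 and 24.8% in that order, with J1157, J1159 and J965 the lowest in the SCN, and 9428875, 12804310, 23495106 and 21560540 counts of nuclear coding genes, each above the SCN median. The part of RNA composition in the high set was not tested. Among those 15, r was 0.65 with Rorb and 0.75 with Rora. Rora likewise had 3 low libraries, J1018, J1199 and J1011 at 40.8 to 56.6 CPM, below the other 16 at 92.9 to 209 CPM. Among those 16, r of Rora with Rorb was 0.90. Each of the 9 SCN neuron markers had its lowest SCN level in J1018, J1199 or J1011. The part of cell composition in the low Rora set was not tested.

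In the SCN, Nr1d1, Rora and Rorb moved with the E-box genes Per2 and Dbp, and also with Arntl, a gene with REV-ERB/ROR elements. Nr1d1 with Per2 gave r = 0.92 (permutation p = 1e-05, adjusted p = 0.00014, rho 0.85, permutation p = 2e-05) and with Dbp 0.86 (permutation p = 1e-05, adjusted p = 0.00014, rho 0.91, permutation p = 1e-05). Rorb with Per2 gave 0.92 (permutation p = 1e-05, adjusted p = 0.00014, rho 0.79, permutation p = 0.00011) and Rora with Per2 0.87 (permutation p = 1e-05, adjusted p = 0.00014, rho 0.86, permutation p = 2e-05). Without the 2 most distant libraries these r values were 0.91, 0.81, 0.88 and 0.82, and in the lower and upper ranges Nr1d1 with Per2 gave 0.91 and 0.92. Among the 15 libraries without the high Nr1d1 set, Nr1d1 had an r of 0.78 with Per2 and 0.87 with Dbp. Nr1d2 instead moved with Cry1, at r = 0.75 (permutation p = 0.00012, adjusted p = 0.00096, rho 0.82, permutation p = 3e-05), and this pair also passed in the PFC with r = 0.77 (permutation p = 0.00048, adjusted p = 0.0027, rho 0.75, permutation p = 0.00084). In the SCN, 13 of 24 pairs of members with the 6 partner genes passed, each of them positive, while 9 of 24 pairs passed in NAc libraries and 1 of 24 in PFC libraries, with all 72 adjusted together. The other SCN pairs that passed were Dbp with Rora (0.84) and Rorb (0.77), Arntl with Nr1d1 (0.60), Rora (0.56) and Rorb (0.73), Cry1 with Rora (0.64) and Rorb (0.54), and Per3 with Rora (0.56). With the trend on the SCN neuron score removed, 4 of these 13 pairs passed, Nr1d1 with Per2 (0.82) and Dbp (0.65), Rorb with Per2 (0.76) and Nr1d2 with Cry1 (0.64), and Cry1 turned to -0.26 with both Rora and Rorb. Without SCN J1157 and SCN J1159, 10 of the 13 passed, the others being Arntl with Nr1d1 (0.46) and Rora (0.48) and Per3 with Rora (0.47). Nr1d2 with Cry1 gave 0.74 in the SCN and 0.76 in the PFC without the 2 most distant libraries.

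In the NAc the pattern differed from that of the SCN in sign for some pairs, and the difference between regions was not tested. Nr1d1 with Nr1d2 gave r = -0.73 across 26 libraries (permutation p = 1e-05, adjusted p = 6e-05, rho -0.60, permutation p = 0.0013). Without the 2 libraries farthest from the median it was -0.51, with -0.89 in the lower range and -0.32 in the upper range. Nr1d1 with Cry1 gave -0.80 (permutation p = 3e-05, adjusted p = 0.00036, rho -0.63, permutation p = 0.00077), which was -0.56 without the 2 farthest libraries, and Nr1d2 with Per2 gave -0.69 (permutation p = 7e-05, adjusted p = 0.00063, rho -0.69, permutation p = 0.00014). Rora with Arntl, its known target, gave 0.63 (permutation p = 0.00057, adjusted p = 0.0029, rho 0.44, permutation p = 0.027). Rorb with Cry1 gave -0.66 (permutation p = 0.00031, adjusted p = 0.0019, rho -0.65, permutation p = 5e-04). Without the 2 most distant libraries, Nr1d2 with Per2 gave -0.65, Rora with Arntl 0.42 and Rorb with Cry1 -0.61. The other NAc pairs that passed were Nr1d2 with Rora (0.57) and Rorb (-0.48), Nr1d2 with Arntl (0.54) and Cry1 (0.66), Nr1d1 with Per2 (0.58) and Per3 (0.48), and Rorb with Dbp (-0.53). With the trend on the share of mt-Rnr1 and mt-Rnr2 removed, none of the 3 member pairs that passed in the NAc passed again, with Nr1d1 with Nr1d2 at -0.24, Nr1d2 with Rora at 0.32 and Nr1d2 with Rorb turned to 0.035. Of the 9 partner pairs, 3 passed again, Nr1d1 with Cry1 (-0.55), Rora with Arntl (0.50) and Rorb with Dbp (-0.66), while Nr1d2 with Per2 turned to 0.051 and Nr1d2 with Cry1 to -0.11. Rora with Rorb, which moved together in the SCN, gave 0.02 in the NAc and 0.17 in the PFC. In the PFC Nr1d1 with Rorb gave 0.73 (permutation p = 0.0014, adjusted p = 0.0052, rho 0.53, permutation p = 0.031), with 0.58 after leaving out the 2 most distant libraries, and Nr1d2 with Rorb gave -0.58 (permutation p = 0.015, adjusted p = 0.034, rho -0.53, permutation p = 0.029), which was -0.25 with the trend on the share removed (adjusted p = 0.41, permutation test).

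**Figure D4:**
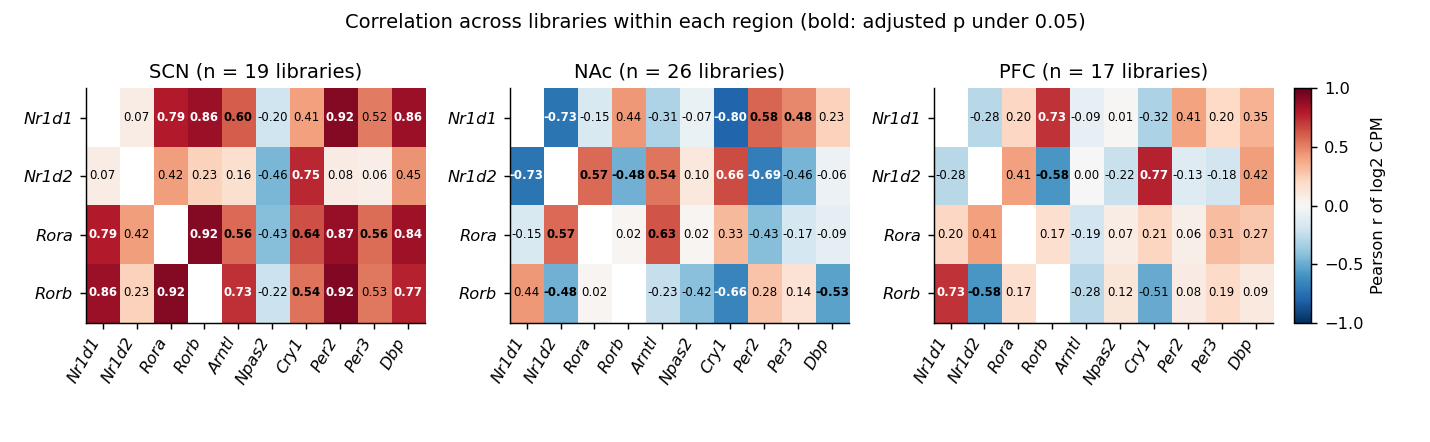
Pearson r of log2 CPM of each receptor (rows) with the other receptors and 6 clock partner genes (columns) across the libraries of each region, with red for positive and blue for negative values and bold for adjusted p under 0.05. Nr1d1, Rora and Rorb are red together with Per2 and Dbp in the SCN, and Nr1d1 is blue with Nr1d2 and Cry1 in the NAc.

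Cell type markers and RNA composition moved with the same libraries. In the SCN the score of 9 SCN neuron markers had an r of 0.93 with Rora (permutation p = 1e-05, adjusted p = 0.00024, rho 0.91, permutation p = 1e-05), 0.83 with Rorb (permutation p = 1e-05, adjusted p = 0.00024, rho 0.83, permutation p = 5e-05) and 0.74 with Nr1d1 (permutation p = 0.00053, adjusted p = 0.0040, rho 0.84, permutation p = 3e-05). Without the 2 most distant libraries these values were 0.87, 0.70 and 0.76, and among the 16 libraries without the low Rora set that of Rora was 0.80. After removing the linear trend on this score, r was 0.13 for Rora with Dbp and -0.55 for Nr1d1 with Nr1d2 (adjusted p = 0.028, permutation test). The SCN neuron score is made of RNA levels, with those of Avp, Prok2 and Vip among them. Whether it followed the number of SCN neurons or the state of their clock was not tested. Residuals on it may thus lack variation of either kind. The share of mt-Rnr1 and mt-Rnr2 followed Nr1d2 in every region, with r = 0.92 in the NAc (permutation p = 1e-05, adjusted p = 0.00024, rho 0.92, permutation p = 1e-05), 0.80 in the PFC (permutation p = 0.00015, adjusted p = 0.0015, rho 0.80, permutation p = 0.00017) and 0.57 in the SCN (permutation p = 0.010, adjusted p = 0.035, rho 0.46, permutation p = 0.047). Nr1d1 went the other way in the NAc, with r = -0.73 (permutation p = 2e-05, adjusted p = 0.00029, rho -0.55, permutation p = 0.0038). In the SCN Nr1d1 also went the other way, with r = -0.64 (permutation p = 0.0031, adjusted p = 0.015, rho -0.43, permutation p = 0.070), and -0.30 without SCN J1157 and SCN J1159, which are the 2 most distant libraries, so that it rests on them. Without the 2 most distant libraries the share and Nr1d2 gave r = 0.89 (NAc), 0.85 (PFC) and 0.49 (SCN), and for Nr1d1 in the NAc r was -0.51, with -0.85 in the lower range and -0.21 in the upper one. NAc J965 and NAc J1019, at 69.3 and 68.7% of counts on these genes, held the lowest Nr1d1, 15.5 and 17.1 CPM, and the highest Nr1d2, 102 and 91.5 CPM. After removing the trend on that share, r of Nr1d1 with Nr1d2 was -0.24 in the NAc (adjusted p = 0.37, permutation test) and 0.68 in the SCN (adjusted p = 0.0039, permutation test). Of the 72 relations with composition measures, 23 passed, of which 12 were from the NAc, 6 from the PFC and 5 from the SCN. Why these measures moved with the receptors was not tested.

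**Figure D5:**
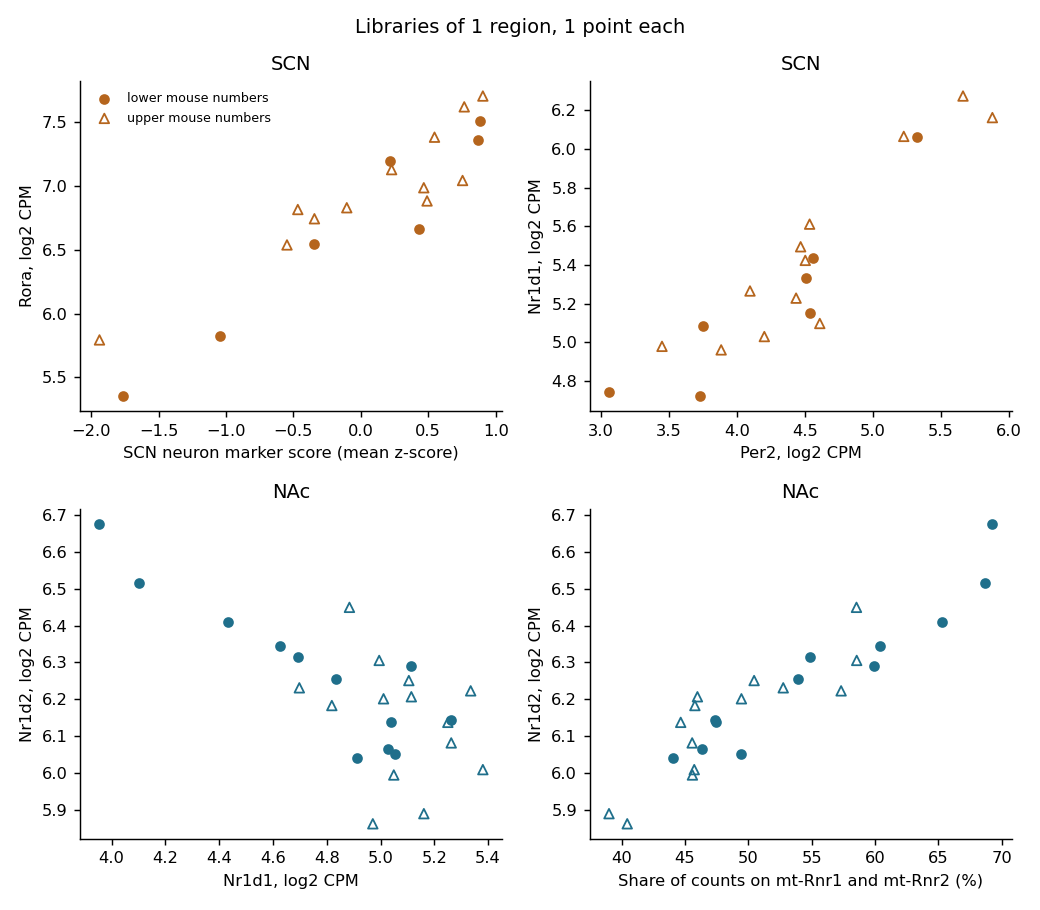
Levels in log2 CPM of single libraries against a marker score, a partner gene or the share of mt-Rnr1 and mt-Rnr2, with filled circles for the lower and open triangles for the upper range of mouse numbers. The top panels (SCN, n = 19) rise for Rora with the SCN neuron score (r = 0.93) and for Nr1d1 with Per2 (r = 0.92), and the bottom panels (NAc, n = 26) show Nr1d2 falling with Nr1d1 (r = -0.73) and rising with the share (r = 0.92).

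Rorb in the PFC moved with the astrocyte score (r = 0.83, permutation p = 5e-05, adjusted p = 6e-04, rho 0.80, permutation p = 0.00027) and in the NAc with the cortical neuron score (r = 0.72, permutation p = 2e-05, adjusted p = 0.00029, rho 0.71, permutation p = 5e-05). Without the 2 most distant libraries these r values were 0.70 and 0.67, and in the lower and upper ranges they were 0.93 and 0.75 for the astrocyte score and 0.63 and 0.84 for the cortical score. Rorb in the NAc also moved with the astrocyte score (0.61) and against the striatal neuron score (-0.61) and the share of mt-Rnr1 and mt-Rnr2 (-0.54). For the REV-ERBs in the NAc, Nr1d1 rose and Nr1d2 fell with the cortical neuron score (0.55 and -0.59) and with the astrocyte score (0.61 and -0.65). Rora in the NAc moved with the share (0.50) and with log2 total count (0.47). In the PFC Nr1d2 went against the cortical neuron score (-0.64), Nr1d1 moved with the astrocyte score (0.60), and both Nr1d1 (0.61) and Rorb (0.75) moved with log2 total count. Without the 2 most distant libraries, the value nearest to 0 among these was that of Nr1d1 with the astrocyte score in the NAc (0.26). The part of these cells and of depth in the receptor values was not tested.

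Between regions of the same mouse, 2 of 12 relations passed. Nr1d2 in the SCN with Nr1d2 in the PFC gave r = 0.74 over 12 mice (permutation p = 0.0064, adjusted p = 0.048, rho 0.70, permutation p = 0.015), 0.70 without SCN J1165 (adjusted p = 0.10, permutation test) and 0.73 without SCN J1157 and SCN J1159 (adjusted p = 0.085, permutation test). Rorb in the NAc with Rorb in the PFC gave -0.63 over 17 mice (permutation p = 0.0080, adjusted p = 0.048, rho -0.41, permutation p = 0.10), and -0.17 without the 2 mice farthest from the median, so that it rests on those mice. The other 10 relations did not pass.

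Genes most like each receptor were taken as the 3 with the highest r over 62 libraries after centring in each region, out of 11132 genes, as a description. Nr1d1 was nearest to Per1 (0.84), Igfbp5 (0.80) and Phf12 (0.80), Nr1d2 to Slc30a4 (0.81), Cetn3 (0.77) and Fbxo3 (0.77), Rora to Flrt3 (0.79), Slc2a13 (0.79) and Fam122b (0.77), and Rorb to Akap17b (0.82), Nr4a3 (0.81) and B3gat2 (0.79). In the ranking for Rora, Rorb stood at place 8 (0.72), Nr1d1 at 144 (0.47) and Nr1d2 at 203 (0.43). In the ranking for Rorb, Rora stood at place 16, Nr1d1 at place 20 (0.71) and Nr1d2 at 5955. The ranking for Nr1d1 held Rorb at place 95, Rora at 1760 and Nr1d2 at 7941 (-0.29). For Nr1d2, Rora stood at 2014, Rorb at 5966 and Nr1d1 at 7740. Libraries share tissue, depth and composition, and the r of the 3 regions differed for some of them, as in Slc2a13 with Rora (0.95 in the SCN, 0.03 in the NAc).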

How the data were processed

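Gene counts of 62 libraries were deposited without normalization, with the SCN in its own table and the other regions together. The authors prepared SmartSeq HT libraries, assessed reads with FastQC 0.11.7, aligned them to GRCm38 with HISAT2 and made the counts with HTSeq. Positions and exon lengths are from GENCODE M21, and promoters from RefSeq. Libraries of a region differed beyond sampling noise and were each counted once.

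edgeR 4.0.16 (R 4.3.3; TMM, filterByExpr, quasi-likelihood test) compared the NAc and PFC in their table, and the SCN with both in a fit of the 11133 rows shared by the tables. A call needed a fold change of at least 1.2 and an adjusted p (Benjamini-Hochberg) under 0.05. Relations within a region used log2 CPM (prior count 2) and two-sided permutation tests of 100000 resamples, exact under 10 libraries. A marker score is the mean z-score of listed genes with a mean of at least 1 CPM. It rests on RNA levels, so cell number and RNA per cell are not told apart in it. The replicates are single animals, so the mouse number pairs libraries of a mouse. The NAc and PFC libraries of a mouse, each less its region mean, correlated at -0.469 to 0.262 (median -0.0035), over 0.1 in 8 of 17 mice. Those of the SCN and NAc correlated at -0.392 to 0.509 (median 0.0014), over 0.1 in 3 of 19 mice. For the SCN and PFC the range was -0.282 to 0.389 (median 0.099), over 0.1 in 6 of 12 mice. The main fits held region alone and treated the libraries of a mouse as independent. In simulated counts with 200 genes changed 2-fold, edgeR recovered 198 of them and called 5 unchanged genes for the NAc against the PFC, over 11569 genes. It recovered 198 and called 6 for the SCN against the NAc, over 11133 genes. DESeq2 recovered 198 in each and called 12 and 8 unchanged genes. The simulation drew genes independently and changed far fewer of them than were called in the data. It thus does not measure power or false calls at the smaller differences of the members between the NAc and PFC.

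The members and gene lists were chosen with earlier results of these data known. Named genes were the members, up to 6 called genes per list by absolute log2 fold change between the NAc and PFC, genes a result turns on, relations past an adjusted p of 0.05, the pairs Nr1d1 with Nr1d2 and Rora with Rorb, and the 3 genes nearest to each member. Alternatives were DESeq2 1.42.0, its size factors, other filters, the mouse block, mouse-number ranges, rank correlation, another prior count and left-out libraries. Residuals on the share of mt-Rnr1 and mt-Rnr2 and on the SCN neuron score, and fits without SCN J1157 and SCN J1159, were chosen after seeing the data. CRD and sex groups were not analysed here. One gene of the haem list is not reported here. Python 3.11.15 was used outside R.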

Additional observations from a re-analysis of the deposited data

How the results depend on the processing

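Of 966 fold changes recomputed under the alternatives, 920 kept their direction and their side of the call limits, 34 lost the call, 12 gained it and none changed sign. The default filter removed no row, so the setting without a filter repeated the main fit. Its values are counted among the 920 but could not differ. Between the NAc and PFC 2 members were called (45.4% of all genes), against 4 with the replicate block (mouse number, 49.1%), 4 in the same mice without the block (49.6%), 4 in the lower range (46.9%) and 1 in the upper one (43.1%). For the SCN against the NAc, 4 members instead of 3 were called with the block (63.2% of all genes) and in the same mice without it (63.3%), where Nr1d2 was added, and for the SCN against the PFC 3 were called with the block as before (64.3%). With the block, which used only mice with both regions, the edgeR adjusted p of Rora was 1.8e-08 against the NAc and 2.1e-06 against the PFC. That of Rorb was 2.2e-07 and 6.8e-05. Of 8 pairs of members that passed, 4 passed without the 2 farthest libraries, 2 in the lower range and 3 in the upper one, which hold fewer libraries. The 23 relations with partner genes became 14 by Spearman rank correlation, 12 without the 2 farthest libraries, 4 in the lower range and 7 in the upper one, and the 13 in the SCN became 6 after removing the trend on the SCN neuron score, of which 4 were among the 13. The 23 with composition measures became 13, 8, 4 and 4 in the first 4 of these settings. The 2 relations across regions became 0 by DESeq2 size factors, by Spearman, without the 2 farthest libraries, in the lower range, in the upper range, without SCN J1165 and without SCN J1157 and SCN J1159. Some r values changed sign. In the upper range these were Nr1d1 with Nr1d2 in the SCN (-0.18) and Nr1d1 with Per3 in the NAc (-0.15). With the SCN neuron score removed they were Nr1d1 with Nr1d2 (-0.55), Rora with Cry1 (-0.26) and Rorb with Cry1 (-0.26) in the SCN. With the mt-Rnr1 and mt-Rnr2 share removed they were Nr1d2 with Rorb (0.035), Nr1d2 with Cry1 (-0.11) and Nr1d2 with Per2 (0.051) in the NAc and Nr1d1 with Nr1d2 in the PFC (0.071). Rora with Rorb was -0.012 by Spearman and -0.086 in the lower range in the NAc, and -0.021 without the 2 farthest libraries and -0.11 in the lower range in the PFC. The cause was not tested. Counts of at least 350 per member and library mean that counting error is small beside the spread between libraries. A mouse gave 1 library per region, so mouse, punch and library preparation cannot be told apart in that spread.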
